A study of Mus musculus with 6 samples.

Results

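The cytochrome P450 genes of the lung were followed in the counts of 3 TNF+ and 3 TNF- mice. The members were all gene symbols made of Cyp and a number directly after it, without Cyp2f2 and without pseudogene symbols that contain -ps, 100 of the 49568 symbols counted. Of these 100, 38 passed the filter on low counts and were tested among 19199 genes, and 62 were not. One symbol that the rule takes in, Cyp4x1os, is an antisense RNA gene and not an enzyme.

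Each library was poly(A) RNA of the lung of 1 female mouse on a C57BL/6 background, 4 months old. TNF+ mice are TNF-Tg animals with 1 copy of the human TNF gene, a model of erosive arthritis with pulmonary hypertension, and TNF- mice are their wildtype (WT) littermates. The question put to the data here was which P450 genes differed between the genotypes. The human transgene itself was not analysed here, and neither the promoter of the transgene nor the cells that make human TNF were given in the sources used here.

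Cytochromes P450 are heme enzymes that put oxygen into small molecules with electrons handed on by P450 oxidoreductase or, in mitochondria, by ferredoxin. Families 1 to 3 act mainly on drugs, toxicants and arachidonic acid, family 4 hydroxylates fatty acids and leukotrienes, and the higher families work on sterols, steroid hormones and vitamins A and D. In the mouse lung the xenobiotic members are best known from club cells of the airway, where they can turn inhaled compounds into reactive products.

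What these enzymes share is the loop that holds the heme iron, in which 1 cysteine binds the metal. The P450 signature of this loop was found in the coding sequence of 34 of the 38 tested members, and it was not found in Cyp2s1, Cyp7b1, Cyp20a1 and Cyp39a1 by the pattern searched. The 30 coding bases of the loop are shown with the cysteine codon in capitals. They are those of the pair of family 1, which moved in opposite directions, and of Cyp4b1. A pair of Cyp4f genes on chromosome 17 that also moved apart is shown as well.
Cyp1a1: tttggtttgggcaagcgaaagTGCatcgga
Cyp1b1: ttctcagtgggcaaacggaggTGCatcggt
Cyp4b1: ttttctgcagggcccaggaatTGCattggg
Cyp4f15: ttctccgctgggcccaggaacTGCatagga
Cyp4f16: ttttctgccgggcccaggaacTGCatagga
The Cyp1a1 stretch lies at chr9:57702664-57702693 on the plus strand in the last of 7 exons, and that of Cyp1b1 at chr17:79710309-79710338 on the minus strand in the last of 3 exons (GRCm38, GENCODE M21). The other 3 stretches run over an exon junction and are read from the spliced coding sequence.

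The promoters of Cyp1a1 and Cyp1b1 are printed because both genes are textbook targets of the aryl hydrocarbon receptor, which binds the core GCGTG. The sequences are the 250 bases before the start of each gene in RefSeq (GRCm38.p6), written along the gene's own strand, and capitals mark the core on either strand.
Cyp1a1: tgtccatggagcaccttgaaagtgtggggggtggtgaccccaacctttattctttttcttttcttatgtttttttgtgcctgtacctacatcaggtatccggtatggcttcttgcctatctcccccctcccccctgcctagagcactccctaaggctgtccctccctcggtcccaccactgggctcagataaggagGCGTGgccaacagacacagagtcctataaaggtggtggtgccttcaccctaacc
Cyp1b1: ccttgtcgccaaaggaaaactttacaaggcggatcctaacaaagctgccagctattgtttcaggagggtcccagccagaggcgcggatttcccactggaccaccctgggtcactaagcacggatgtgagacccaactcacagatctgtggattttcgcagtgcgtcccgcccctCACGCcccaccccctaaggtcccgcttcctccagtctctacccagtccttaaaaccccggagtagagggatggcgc
That of Cyp1a1 is chr9:57697363-57697612 on the plus strand, inside an intron of a longer annotated transcript, and that of Cyp1b1 is chr17:79715062-79715311 on the minus strand, upstream of every annotated transcript. Each window holds 1 core, at -54 in Cyp1a1 and at -76 in Cyp1b1, counted from the RefSeq start. The core was in 28.2% of 32851 mouse promoters of this length and in 11 of the 31 promoters given for 30 of the tested Cyp genes. By gene, it was in 5 of 8 promoters of members higher in TNF+ lungs, in 2 of 11 of members lower, and in 4 of 11 of members not called. TATAAA was in 12.4% of all these promoters and in 6 of the 31, and the sterol element TCACNCCAC was in 1.05% of all and in 0 of the 31. These are matches of letters on either strand and not binding sites.

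The total counts per lung were between 25396923 and 32529408, so that 3 counts stood for 0.088 to 0.131 CPM, which is a count scaled to the TMM-normalized library size. The quasi-likelihood test of edgeR called 9096 genes, 47.4% of those tested, at a Benjamini-Hochberg adjusted p of 0.05. Whole cell type lists moved too: the CPM summed over 8 macrophage markers were 4405 to 6508 in TNF+ lungs against 381 to 495 in TNF- lungs, and over 6 B or plasma cell markers 2033 to 4145 against 126 to 365. In bulk RNA, fewer cells of a type and less RNA per cell cannot be told apart. The TNF- replicate 1 library stood apart by markers of squamous epithelium (3579 CPM against 11.5 to 33.2 in the other 5 lungs) and skeletal muscle (1925 against 16.5 to 44.4), so results that rest on it are also given without it. In TNF+ replicate 1, 5.22% of counts lay on Gm42418 against at most 0.274% elsewhere.

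Among the 38 tested P450 genes, 24 differed between TNF+ and TNF- lungs, 63.2% beside the 47.4% of all genes. Lower in TNF+ lungs were 15 members (39.5%, beside 23.4% of all genes) and higher were 9 (23.7%, beside 24% of all genes). A change of at least 2-fold was called in 9 members that were lower and 5 that were higher, where all genes gave 12.2% and 10.3%. The normalized counts of the groups did not overlap in 25 of the 38 (65.8%, beside 58.7% of all genes). The median log2 fold change, TNF+ over TNF-, was -0.18 beside 0.03 over all genes tested, and the single values ran from -5.11 to 3.83. With at least 10 counts required in every lung, 9 members were called higher and 11 lower, and the median had the opposite sign (0.10). Cyp1a1, Cyp2b9, Cyp2b19 and Cyp2c44, all called lower in the main test, were then not tested. Without TNF+ replicate 2, 8 members were called lower in place of 15, and without both first replicates 7 were called higher and 11 lower. No called member changed direction when any lung was left out, and 16 of the 24 kept their call in every such fit.

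**Figure D1:**
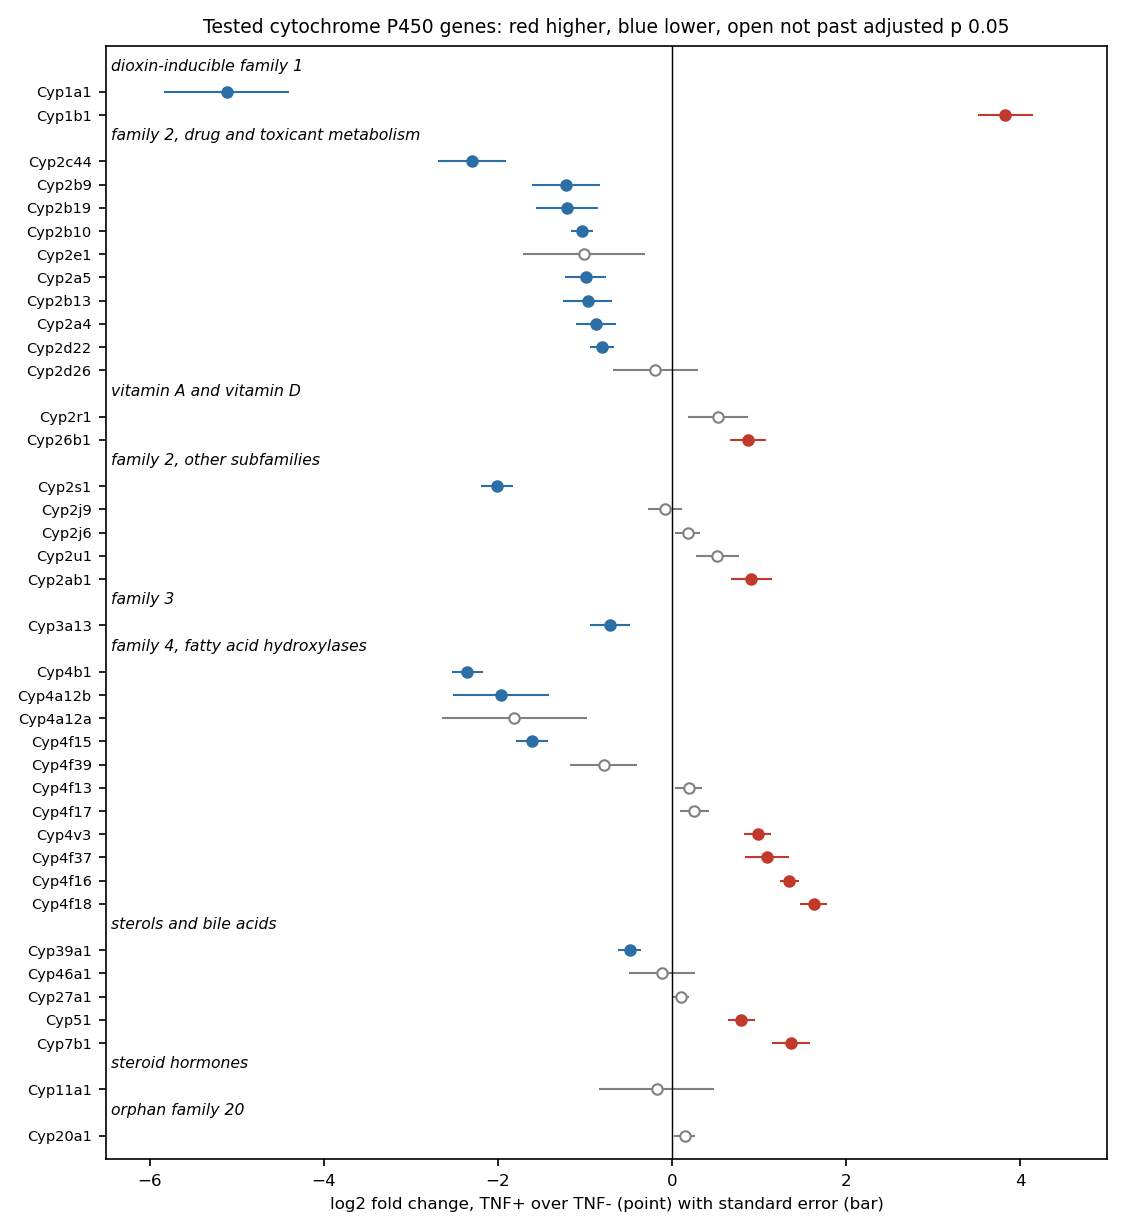
Log2 fold changes of the 38 tested cytochrome P450 genes (points, TNF+ over TNF-, 3 lungs each) with standard errors (bars), grouped by role. The drug and toxicant members of family 2 lie at or left of 0, family 4 lies on both sides, and Cyp1a1 (-5.11) and Cyp1b1 (3.83) mark the ends of the scale.

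Both tested members of family 1 changed, and in opposite directions. Cyp1a1, the classic dioxin-inducible monooxygenase, had 6, 3 and 1 counts in TNF+ replicates 1 to 3 and 98, 244 and 75 in TNF- replicates 1 to 3. Every TNF- lung lay far above every TNF+ lung. Summed over lungs and scaled for depth, the counts were 36.1 times lower in TNF+ lungs (10 against 417 counts, exact 95% interval 19.4 to 75.9, which covers counting error only). The log2 fold change was -5.11 (SE 0.72, adjusted p = 0.000762 by the quasi-likelihood test of edgeR, Benjamini-Hochberg adjusted), and leaving out 1 lung gave -6.00 (without TNF+ replicate 1) to -4.40 (without TNF- replicate 2), with -5.33 without TNF- replicate 1. Cyp1b1, which hydroxylates estrogens and polycyclic hydrocarbons and is found in many tissues outside the liver, had 1623, 3162 and 1739 counts in TNF+ lungs and 153, 128 and 254 in TNF- lungs. The groups were well apart, and TNF+ replicate 2 was the highest. The rise was 14.2-fold (log2 3.83, SE 0.32, adjusted p = 5.24e-05 by edgeR), and leaving out any lung kept it between 3.52 and 4.12. Per length, Cyp1b1 went from 0.932 ± 0.305 RPKM (SD, n = 3) in TNF- lungs to 13.3 ± 4.72 in TNF+ lungs, while Cyp1a1 went from 1.56 ± 1.06 to 0.0472 ± 0.0423. The third member, Cyp1a2, had 4 counts over all 6 lungs and was not tested.

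Of the 8 genes of the aryl hydrocarbon receptor axis, 2 were higher and 2 lower in TNF+ lungs (median log2 fold change -0.17), a share close to the 47.4% of all genes called. Ahrr, which encodes the repressor of the receptor, had 292, 315 and 380 counts in TNF+ lungs and 10, 2 and 9 in TNF- lungs (log2 fold change 5.75, SE 0.37, adjusted p = 1.75e-05 by edgeR). All TNF+ lungs were above all TNF- lungs, as for Cyp1b1 and opposite to Cyp1a1. Arnt2, a dimerization partner of the receptor, was also higher (1.74), and the general partner Arnt was slightly lower (-0.32). The receptor gene Ahr itself had a log2 fold change of -0.24 (adjusted p = 0.211), and Tiparp (-0.14) and Nqo1 (0.37), 2 other known targets, did not pass either. Aldh3a1, called lower (-1.90), had 4742 counts in TNF- replicate 1, while TNF- replicates 2 and 3 had 846 and 932. Without that lung Aldh3a1 did not pass (-0.59, adjusted p = 0.0527 by edgeR), and leaving out any TNF+ lung likewise ended the call (adjusted p = 0.0716 to 0.12). Without TNF- replicate 1, and likewise without TNF+ replicate 2, the axis had 2 genes called in place of 4.

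The family 2 members grouped here under drug and toxicant metabolism were lower where they were called. Of 34 members 10 were tested, and 8 of these were lower in TNF+ lungs, 0 were higher and 2 did not pass (median log2 fold change -1.0), beside 23.4% of all genes lower and 24% higher. The group also takes in epoxygenases such as Cyp2c44, while the Cyp2j epoxygenases are counted with the other subfamilies. Cyp2b10, the main phenobarbital-inducible P450 of the mouse, had 3891, 4803 and 4127 counts in TNF+ lungs and 9729, 10069 and 11008 in TNF- lungs. The TNF+ lungs were all below the TNF- lungs, and the spread within each genotype was small. The fold was 2.05-fold lower (log2 -1.04, SE 0.13, adjusted p = 0.000375 by edgeR). Cyp2a5, which oxidizes coumarin and nicotine, had 1417, 1136 and 1549 counts against 3035, 2240 and 4404. These groups did not overlap, with the TNF- lungs the more variable (log2 fold change -0.99, SE 0.24, adjusted p = 0.00958 by edgeR). Cyp2d22 had 957, 1408 and 1051 counts against 2237, 2343 and 2329, again without overlap (-0.80, SE 0.14, adjusted p = 0.00205 by edgeR). Cyp2c44, an arachidonic acid epoxygenase, was rare in both groups, with 2, 6 and 5 counts against 25, 21 and 29. Scaled for depth, its summed counts were 4.997 times lower in TNF+ lungs (exact 95% interval 2.75 to 9.82, which covers counting error only). The log2 fold change of Cyp2c44 was -2.30 (SE 0.39, adjusted p = 0.00197 by edgeR).

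The calls of the other members of this group were less stable. Cyp2b9, a liver gene with female-biased expression, had 7, 10 and 16 counts in TNF+ lungs and 24, 21 and 44 in TNF- lungs (-1.22, adjusted p = 0.0319 by edgeR). Cyp2b19, an epoxygenase of keratinocytes, had 6, 8 and 8 counts against 23, 20 and 16 (-1.21, adjusted p = 0.0228). Cyp2b13 (-0.97, adjusted p = 0.0208) and Cyp2a4, a steroid hydroxylase (-0.87, adjusted p = 0.0152), were also lower, and in all 4 the groups did not overlap. Leaving out single lungs ended each of these calls. Cyp2b19 passed in only 1 of the 6 fits that left out a lung, that without TNF- replicate 3, and its adjusted p in the other 5 was up to 0.0862. DESeq2 called neither Cyp2b9 (adjusted p = 0.073) nor Cyp2b19 (0.127). Cyp2b9 missed the threshold without TNF+ replicate 1 (adjusted p = 0.0923), TNF+ replicate 2 (0.0975) or TNF- replicate 3 (0.108). Cyp2b13 missed it without TNF+ replicate 1 (0.0511), TNF+ replicate 2 (0.0603) or TNF- replicate 2 (0.0611), and Cyp2a4 without TNF+ replicate 2 (0.0601), all by edgeR. Cyp2d26, with 4 to 12 counts per lung, overlapped between groups (-0.19, adjusted p = 0.77).

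Cyp2e1, the ethanol- and acetone-oxidizing enzyme, split the TNF+ lungs. It had 88, 66 and 686 counts in TNF+ lungs and 509, 556 and 751 in TNF- lungs, so that TNF+ replicate 3 lay among the TNF- lungs. Over all lungs the log2 fold change was -1.01 (SE 0.70, adjusted p = 0.266 by edgeR), and without TNF+ replicate 3 it was -2.63 (adjusted p = 0.000683). Some fat cell genes had TNF+ replicate 3 among the TNF- lungs as well, and Fabp4 did not follow them. Adipoq had 13, 12 and 346 counts in TNF+ lungs against 334, 237 and 657 in TNF- lungs, and Plin1 had 11, 5 and 203 against 239, 164 and 310. Fabp4, which macrophages also express, had 874, 1394 and 1830 counts against 703, 480 and 1376 (log2 fold change 0.88, adjusted p = 0.0547 by edgeR). Of the 5 fat cell markers tested, 1 (Cidec) was lower and 4 did not pass, and the summed level of the whole list of 6, with the untested Lep, was 42.7 to 95.1 CPM in TNF+ lungs and 49.3 to 109 in TNF- lungs. Their part in the Cyp2e1 values was not tested.

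**Figure D2:**
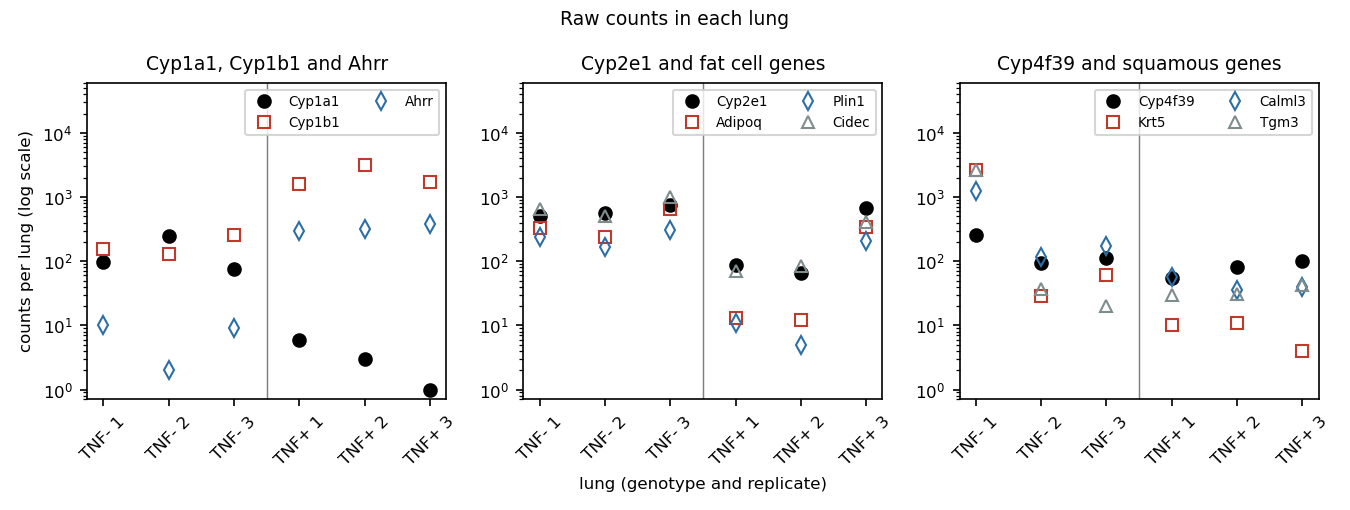
Raw counts in each of the 6 lungs on a log scale for Cyp1a1 and Cyp1b1 with Ahrr (left), for Cyp2e1 with 3 fat cell genes (middle), and for Cyp4f39 with 3 squamous genes (right); the vertical line parts TNF- from TNF+ lungs. Cyp1a1 and Cyp1b1 lie close together in TNF- lungs and far apart in TNF+ lungs, TNF+ replicate 3 keeps 686 counts of Cyp2e1, and TNF- replicate 1 has 257 counts of Cyp4f39.

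Of the other family 2 subfamilies, 5 of 13 members were tested. Cyp2s1, an airway P450 that oxidizes retinoids and prostaglandin intermediates, had 1816, 2129 and 1773 counts in TNF+ lungs and 8514, 7254 and 11398 in TNF- lungs. The lowest TNF- lung was above all TNF+ lungs by a wide margin, and the fall was 4.02-fold (log2 -2.01, SE 0.18, adjusted p = 8.52e-05 by edgeR). Cyp2ab1 was higher (0.91, SE 0.24, adjusted p = 0.0138), with 54 to 105 counts against 39 to 57 and no overlap once normalized, but it missed the threshold without TNF+ replicate 3 (adjusted p = 0.0531) or without TNF- replicate 1 (0.0520). The epoxygenases Cyp2j6 (0.18) and Cyp2j9 (-0.08) overlapped between groups and did not pass. Cyp2u1, a fatty acid hydroxylase, did not overlap in normalized counts but did not pass either (0.52, adjusted p = 0.118 by edgeR). In family 3, Cyp3a13 was the only one of 9 members tested. It was lower, with 65 to 75 counts in TNF+ lungs and 108 to 155 in TNF- lungs (-0.71, SE 0.23, adjusted p = 0.033 by edgeR), and it passed in 2 of the 6 fits that left out a lung. Its adjusted p was 0.1003 without TNF+ replicate 2, 0.0845 without TNF+ replicate 3, 0.0919 without TNF- replicate 1 and 0.0656 without TNF- replicate 3.

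Family 4, whose enzymes hydroxylate the end of fatty acid chains, moved both ways. Of its 11 tested members among 21, 4 were higher, 3 were lower and 4 did not pass (median log2 fold change 0.19), beside 24% of all genes higher and 23.4% lower. Cyp4b1, an activator of inhaled toxicants such as ipomeanol, had 2897, 2467 and 2934 counts in TNF+ lungs and 17075, 17319 and 15374 in TNF- lungs. The lungs of each genotype lay close together and far from the other genotype, 5.10-fold lower in TNF+ lungs (log2 -2.35, SE 0.18, adjusted p = 3.47e-05 by edgeR). Cyp4f15 was lower as well, with 65, 95 and 90 counts against 242, 275 and 364 (-1.60, SE 0.18, adjusted p = 0.000274).

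Cyp4f18, which inactivates the chemoattractant leukotriene B4 in leukocytes, was higher in TNF+ lungs. It had 945, 1584 and 1407 counts against 391, 513 and 557, without overlap (3.10-fold, log2 1.63, SE 0.15, adjusted p = 9.96e-05 by edgeR). Cyp4f16 had 1060, 1244 and 1683 counts against 560, 598 and 642 (log2 1.35, SE 0.11, adjusted p = 4.54e-05), and here too every TNF+ lung was above every TNF- lung. Cyp4v3, a fatty acid hydroxylase whose human counterpart is mutated in a crystalline retinal dystrophy, had 1576, 2283 and 1625 counts against 1012, 1127 and 1087 (0.99, SE 0.16, adjusted p = 0.00131). Cyp4f37 had 98, 157 and 191 counts against 55, 97 and 86, where the raw counts of the groups all but touched and the normalized counts did not overlap (1.09, SE 0.25, adjusted p = 0.00846). Cyp4f18 shares exon sequence with Zfp961 on the opposite strand, which had 215 to 366 counts in TNF+ lungs and 284 to 368 in TNF- lungs, and Cyp4v3 shares it with Gm45753 on the same strand.

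Cyp4a12b, which makes hydroxylated arachidonic acid in kidney, had 53, 14 and 17 counts in TNF+ lungs and 162, 128 and 115 in TNF- lungs. TNF+ replicate 1 was the highest of its group but still below all TNF- lungs (-1.96, SE 0.55, adjusted p = 0.0198 by edgeR), and without it the value was -3.07. The call was lost without TNF+ replicate 2 (adjusted p = 0.0609) or TNF+ replicate 3 (0.0603). Its near-copy Cyp4a12a had 23, 2 and 3 counts against 62, 33 and 27 and did not pass (-1.81, adjusted p = 0.107), while without TNF+ replicate 1 its log2 fold change was -3.93 and passed. Cyp4f39, an enzyme of skin barrier lipids, had 54, 82 and 102 counts against 257, 94 and 113 (-0.78, adjusted p = 0.129 by edgeR), and without TNF- replicate 1, the lung with the squamous markers, the value was -0.20. In that lung the squamous list summed to 3579 CPM, and its part in the Cyp4f39 counts was not tested. Cyp4f13 (0.19) and Cyp4f17 (0.26) overlapped between groups and did not pass.

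Some of these genes are near-copies, which sets how far their counts can be told apart. The coding sequences of Cyp2a4 and Cyp2a5 are 98.5% identical, as are those of Cyp4a12a and Cyp4a12b, and those of Cyp4f16 and Cyp4f37 are 95.7% identical. The 60 coding bases that hold the most differences are shown for the first 2 pairs, with the differing bases in capitals, as examples of the 23 coding bases that differ in each of these pairs.
Cyp2a4: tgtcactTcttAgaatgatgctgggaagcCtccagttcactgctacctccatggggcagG
Cyp2a5: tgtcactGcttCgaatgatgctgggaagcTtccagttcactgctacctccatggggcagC
Cyp4a12a: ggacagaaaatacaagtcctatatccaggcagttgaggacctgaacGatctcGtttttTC
Cyp4a12b: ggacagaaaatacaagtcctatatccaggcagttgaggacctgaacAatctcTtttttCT
Of the 100-base windows of their transcripts, 11.2% and 12.1% were shared in the first pair and 35.8% and 36.2% in the second with another locus. The ratio of Cyp2a4 to Cyp2a5 counts was 0.139 to 0.178 in all 6 lungs, and that of Cyp4a12a to Cyp4a12b was 0.143 to 0.434. The paper's methods name uniquely mapped transcripts for its own test. The setting of the counter for reads that match both copies was not given in the sources used here, so the separate values of each pair are uncertain. The ratio of Cyp4f37 to Cyp4f16 was 0.0925 to 0.162.

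Some of the tested P450 genes lay in clusters along a chromosome. On chromosome 7, within 1.04 Mb between 25802475 and 26843548 (GRCm38), all 7 tested members were lower in TNF+ lungs: Cyp2s1, Cyp2b10, Cyp2b13, Cyp2b9, Cyp2a4, Cyp2b19 and Cyp2a5, in map order (23.4% of all genes were lower). Without TNF+ replicate 2 only 3 of the 7 were called, and without TNF+ replicate 1 only 4. On chromosome 17, within 0.495 Mb between 32452723 and 32947402, 6 Cyp4f genes were tested. Of these, 2 (Cyp4f16 and Cyp4f37) were higher, Cyp4f15 was lower and 3 did not pass, close to the 47.4% of all genes called. On chromosome 4, between 115299046 and 115647723, Cyp4a12b and Cyp4b1 were lower and Cyp4a12a did not pass, beside 23.4% of all genes lower.

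**Figure D3:**
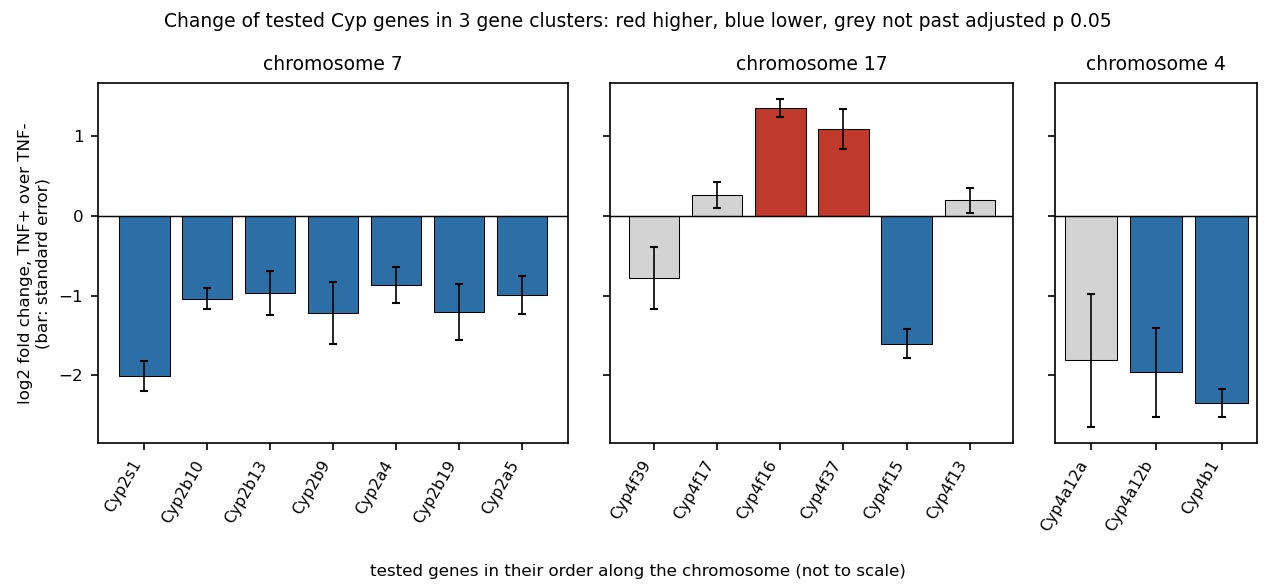
Log2 fold change (bars, TNF+ over TNF-) with standard error of the tested P450 genes in 3 clusters, in map order and not to scale. The 7 genes on chromosome 7 all lie below 0, while the Cyp4f genes on chromosome 17 lie between -1.60 and 1.35.

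Of the sterol and bile acid enzymes, 5 of 7 were tested, and 2 were higher, 1 was lower and 2 did not pass, beside 47.4% of all genes called. Cyp7b1, which hydroxylates oxysterols on the way to ligands of the lymphocyte receptor GPR183, had 246, 339 and 360 counts in TNF+ lungs and 103, 123 and 198 in TNF- lungs. The groups did not overlap, and the rise was 2.58-fold (log2 1.37, SE 0.22, adjusted p = 0.00145 by edgeR). Of 7 genes of oxysterol handling, 3 were higher, 1 was lower and 3 did not pass (median 0.22), beside 47.4% of all genes called. Ch25h, which makes the substrate of Cyp7b1, had 324, 449 and 636 counts against 87, 98 and 158 (log2 fold change 2.23, SE 0.23, adjusted p = 0.000172), and Gpr183 was higher too (0.96). Abca1, a cholesterol exporter, rose by 1.68, and Hsd3b7, which acts after Cyp7b1, did not pass (-0.35). Sult2b1, a sterol sulfotransferase, was lower (-1.35), with 44, 52 and 34 counts in TNF+ lungs and 193, 105 and 89 in TNF- lungs. Its highest count lay in TNF- replicate 1, the lung with the squamous markers.

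Cyp51, the lanosterol demethylase of cholesterol synthesis, had 1075, 1023 and 1116 counts in TNF+ lungs and 622, 674 and 886 in TNF- lungs. All TNF+ lungs were above all TNF- lungs (log2 fold change 0.80, SE 0.16, adjusted p = 0.00400 by edgeR). Akap9, which overlaps Cyp51 on the opposite strand, had 1271 to 1637 counts in TNF+ lungs and 2108 to 2661 in TNF- lungs, the reverse order. Of the 19 other genes of the pathway, 4 were higher, 2 were lower and 13 did not pass (median 0.09), fewer than the 47.4% of all genes called would give. Without TNF+ replicate 1, without TNF- replicate 1 or with total counts only, 2 were higher and 1 was lower. Msmo1, which acts after Cyp51, was higher (0.76), and Mvd had the largest difference (1.31). Tm7sf2 was lower (-0.43), and Hsd17b7 had the smallest difference (-0.0040). Cyp39a1, an oxysterol hydroxylase, was lower (-0.49, SE 0.13, adjusted p = 0.0147 by edgeR), with 310 to 388 counts against 524 to 601. It missed the threshold without TNF+ replicate 2 (adjusted p = 0.0585), TNF- replicate 1 (0.0518) or TNF- replicate 2 (0.0617). Cyp27a1, the mitochondrial sterol hydroxylase, overlapped between groups (0.10, adjusted p = 0.417), as did Cyp46a1, best known from neurons (-0.11, adjusted p = 0.823).

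Cyp26b1, which breaks down retinoic acid, was higher in TNF+ lungs, with 449, 535 and 608 counts against 292, 442 and 264. TNF+ replicate 1 and TNF- replicate 2 were close in raw counts, and the normalized counts did not overlap (log2 fold change 0.88, SE 0.21, adjusted p = 0.00964 by edgeR). Without both first replicates, the libraries that stood apart, Cyp26b1 did not pass (0.74, adjusted p = 0.0743). The genes that make and handle retinoids lay mostly the other way: of 13 tested, 9 were lower, 1 was higher and 3 did not pass (median -0.53, beside 23.4% of all genes lower). Without TNF- replicate 1, 6 were lower and 0 were higher. Aldh1a1 had 9539, 10366 and 11091 counts against 29381, 29959 and 33476 (-1.36, SE 0.12, adjusted p = 8.41e-05), and Aldh1a2, another enzyme that makes retinoic acid, was at -1.81. Rbp4, the retinol carrier, had the largest difference (-2.70), Lrat, which stores retinol as esters, was at -1.80, and all 3 receptors, Rara (-0.53), Rarb (-0.46) and Rarg (-0.61), were lower. Stra6, a retinol transporter, was higher (1.10), a call that was lost without TNF+ replicate 1, TNF+ replicate 2, TNF- replicate 1 or TNF- replicate 2, when 0 genes of the list were higher. Cyp2r1, a vitamin D hydroxylase, had 12 to 29 counts per lung and did not pass (0.53, adjusted p = 0.24), and Vdr, the vitamin D receptor, did not either (0.20).

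Cyp11a1, which starts steroid hormone synthesis, had 3, 4 and 24 counts in TNF+ lungs and 15, 9 and 15 in TNF- lungs (-0.18, adjusted p = 0.846 by edgeR), and its sign changed when TNF+ replicate 1 (0.13) or TNF+ replicate 2 (0.21) was left out. Nr5a1 and Mc2r, defining markers of steroid-making cells, had at most 3 counts in any lung, as did Hsd3b1. The other 2 markers on that list were called lower in TNF+ lungs, Star with 47 to 82 counts against 137 to 258 (-1.25) and Akr1b7 with 7 to 11 against 31 to 53 (-2.0). Cyp20a1, an orphan enzyme, overlapped between groups (0.15, adjusted p = 0.336).

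**Figure D4:**
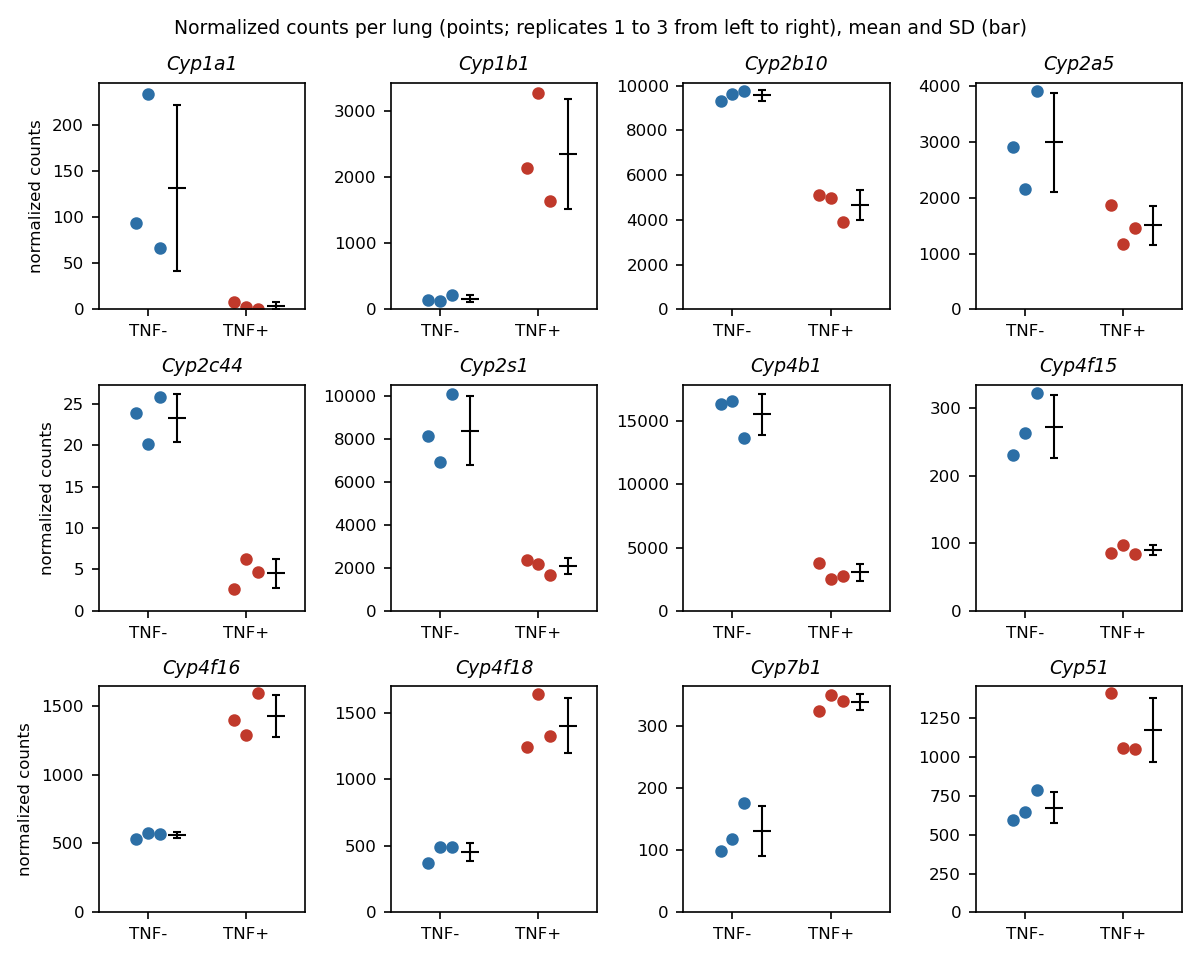
Normalized counts of 12 P450 genes in each lung (points, blue TNF- and red TNF+, replicates 1 to 3 from left to right) with the mean and SD of 3 lungs (bars) on linear axes from 0. All 12 shown are called members, 7 lower and 5 higher in TNF+ lungs. They belong to the 25 of 38 tested members whose groups do not overlap (65.8%, beside 58.7% of all genes).

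Compared per length, few of the 38 tested genes made up most of their summed RNA. P450 genes outside the rule, such as Cyp2f2 and Ptgis, are not ranked. In TNF- lungs Cyp4b1 led with 227 ± 23.7 RPKM (counts scaled to exon length and library size, SD, n = 3), followed by Cyp2b10 with 150 ± 3.92, Cyp2s1 with 56.2 ± 10.7 and Cyp2a5 with 47.6 ± 14.1. Within each TNF- lung these 4 kept this order, and only the ranges of Cyp2s1 and Cyp2a5 overlapped between lungs. In TNF+ lungs Cyp2b10 led with 72.9 ± 10.5, Cyp4b1 had 44.6 ± 9.93, and Cyp4f18 (25 ± 3.68), Cyp2a5 (23.9 ± 5.55) and Cyp4v3 (17.3 ± 3.65) came next and overlapped with their neighbours. By rank among the 38, Cyp1b1 was at 27 in TNF- lungs and at 9 in TNF+ lungs, and Cyp1a1 was at 24 and at 38.

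Summed over the 38 genes, the level per length was 336, 315.5 and 290.1 RPKM in TNF+ lungs and 603.8, 599.3 and 609.8 in TNF- lungs, a ratio of 1.93 between the means. Cyp4b1, Cyp2b10 and Cyp2s1 made up 69.0% to 73.5% of it in TNF- lungs and 38.8% to 45.3% in TNF+ lungs. The other 35 genes summed to 182 ± 4.33 RPKM in TNF+ lungs and 171 ± 16.0 in TNF- lungs (SD, n = 3).

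**Figure D5:**
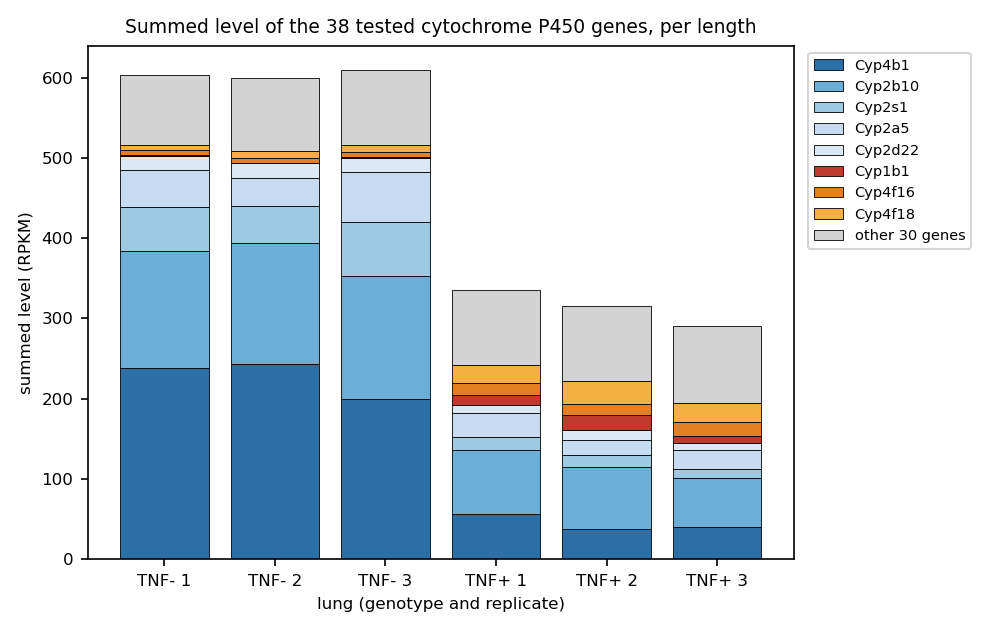
Stacked level in RPKM (linear axis from 0) of the 38 tested P450 genes in each lung, with 8 genes coloured and the other 30 in grey. The TNF- columns end between 599.3 and 609.8 and the TNF+ columns between 290.1 and 336, and the difference lies mainly in the 3 lowest blocks, Cyp4b1, Cyp2b10 and Cyp2s1.

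Markers of lung cell types moved beside these groups, where 23.4% of all genes were lower and 24% higher. Of 7 club cell markers 6 were lower in TNF+ lungs and 1 did not pass, with a summed level of 7072 to 8943 CPM against 15400 to 27580. All 6 ciliated cell markers (123 to 183 CPM against 462 to 668), all 6 alveolar type 1 markers (1072 to 1322 against 3121 to 3328) and all 8 endothelial markers (1420 to 1691 against 3114 to 3751) were lower as well. Of 8 fibroblast markers 6 were lower (937 to 978 CPM against 1599 to 2459), and of 6 smooth muscle markers 5 (555 to 584 against 1006 to 1220). Of 7 alveolar type 2 markers 2 were lower and 1, Lyz1, was higher (16600 to 20940 against 22390 to 26910). On the other side, all 8 macrophage markers and 5 of 6 B or plasma cell markers were higher, beside the 9 P450 genes that were higher. Of 6 neutrophil markers 4 were lower and 1 was higher (62.6 to 94.7 CPM against 84.7 to 143). The part of these cell types in the P450 values was not tested. The defining liver marker Alb had 2 to 5 counts in TNF+ lungs and 27 to 36 in TNF- lungs, and 3 of the 5 tested hepatocyte genes were lower. The list summed to 4.14 to 6.66 CPM in TNF+ lungs against 2.05 to 3.08, with Serpina1a higher at 71, 177 and 130 counts against 0, 0 and 2.

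The partners of the P450 enzymes were lower or did not pass with 1 exception. Of 9 tested redox partners 4 were lower, 1 was higher and 4 did not pass (median log2 fold change -0.25), beside 47.4% of all genes called. Without TNF+ replicate 1, TNF- replicate 1 or TNF- replicate 2, and with the replicate number as a block, 3 were called, all lower. Por, the oxidoreductase that feeds electrons to all microsomal P450 enzymes, had 5219, 7825 and 5609 counts in TNF+ lungs and 13322, 15205 and 16398 in TNF- lungs. The groups did not overlap, and Por was 2.07-fold lower (log2 -1.05, SE 0.16, adjusted p = 0.00128 by edgeR). Pgrmc1, a heme-binding partner (-0.83), Cyb5r3 (-0.40) and Fdx1, the mitochondrial ferredoxin (-0.62), were lower, and cytochrome b5 (Cyb5a) was at the threshold (0.31, adjusted p = 0.0495). The Cyb5a call was lost with DESeq2, with both other scalings, with no filter, with the block and in every fit that left out 1 lung except that without TNF- replicate 3. Pgrmc2 had the smallest difference (-0.09).

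P450 enzymes with symbols outside the rule were Tbxas1 and Ptgis. Tbxas1, thromboxane synthase, was higher, with 1385, 1967 and 1755 counts against 338, 422 and 445 (4.91-fold, log2 2.30, SE 0.13, adjusted p = 9.89e-06 by edgeR). Ptgis, prostacyclin synthase, was lower, with 2432, 3109 and 2659 counts against 4216, 5023 and 5446 (log2 -0.62, SE 0.13, adjusted p = 0.00584). The genotypes did not overlap in either gene.

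Of 8 tested nuclear receptors of xenobiotics and lipids 3 were higher, 2 were lower and 3 did not pass (median 0.18), beside 47.4% of all genes called. Nr1i2, the pregnane X receptor that drives Cyp3a and Cyp2b genes, had 3, 12 and 12 counts in TNF+ lungs and 37, 57 and 98 in TNF- lungs (log2 -2.62, SE 0.48, adjusted p = 0.00271 by edgeR). Ppara, which drives Cyp4a genes, was lower (-1.61). Nr1h4, the bile acid receptor, was higher (2.82), as were Rxrg (2.60) and Nr1h3 (0.75), while Rxra, the common partner, had the smallest difference (-0.0027). Nr1i3, the main activator of Cyp2b10 in liver, had at most 3 counts in any lung and was not tested. Of 7 tested enzymes that act on P450 products, 3 were lower, 1 was higher and 3 did not pass (median -0.59), beside 47.4% of all genes called. Ephx1, which opens epoxides, was lower (-0.59), Ephx2 was at -0.07 and did not pass, Ugt1a7c was higher (2.32) and Ugt1a6b was lower (-1.26). The Ugt1a genes share their last exons, so their separate counts are uncertain.

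The 62 members that were not tested had at most 24 counts in any lung. Of these, 13 had 0 counts in all 6 lungs (Cyp2c37, Cyp2c38, Cyp2c40, Cyp2c54, Cyp2c67, Cyp2c68, Cyp2c69, Cyp2j12, Cyp2w1, Cyp3a41a, Cyp3a41b, Cyp3a59 and Cyp7a1), where 3 counts stand for 0.088 to 0.131 CPM per lung. Cyp3a41a and Cyp3a41b share 90.8% and 88.2% of their 100-base windows with another locus, and Cyp2c40 and Cyp2c69 share 34.4% and 35.4%, so 0 counts do not bound genes of this kind. The largest sums over the 6 lungs were those of Cyp8b1 (65 counts), Cyp2b23 (51), Cyp4f14 (41), Cyp27b1 (29), Cyp4f40 (27) and Cyp21a1 (22). Cyp2c65 and Cyp26a1 had 19 counts each, and of the 19 of Cyp2c65, 17 lay in TNF- replicate 1. Sums of 10 to 16 counts were found for Cyp2d9, Cyp2d11, Cyp26c1, Cyp4x1, Cyp2d34, Cyp2c29, Cyp2d10, Cyp2g1, Cyp17a1 and Cyp2d12, and of 6 or 7 for Cyp2a12, Cyp2a22 and Cyp2c66. With 3 or 4 counts in all were Cyp1a2, Cyp2c39, Cyp2c50, Cyp2d40, Cyp2j5, Cyp2j7, Cyp2j8, Cyp2j11, Cyp2j13, Cyp3a57, Cyp4a14, Cyp4x1os and Cyp19a1. With 1 or 2 were Cyp2c55, Cyp2c70, Cyp2t4, Cyp3a11, Cyp3a16, Cyp3a25, Cyp3a44, Cyp4a10, Cyp4a29, Cyp4a30b, Cyp4a31, Cyp4a32, Cyp11b1, Cyp11b2 and Cyp24a1. Without the filter on low counts, edgeR fitted 49 of the 62 and called 0, with 3 (Cyp2g1, Cyp4x1 and Cyp26c1) at an unadjusted p under 0.05. DESeq2 also called 0, with 0 at an unadjusted p under 0.05, and gave an adjusted p for 13 of the 49.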

How the data were processed

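Poly(A) RNA of the lungs of 3 TNF+ and 3 TNF- mice was analysed. Per the labels and the submitters' processing notes, the authors used a stranded kit, Trimmomatic (its version differs between the notes and the methods), STAR 2.5.2b, featureCounts and GRCm38.p5, and deposited raw counts per gene symbol without normalization. The strand setting and the annotation are not given in the sources used here. Counts were tested with edgeR 4.0.16 in R 4.3.3 (filterByExpr, TMM, quasi-likelihood test, genotype as the only term) with Benjamini-Hochberg adjustment over 19199 genes at 0.05. The standard error is the log2 fold change divided by the square root of F. Normalized counts are scaled to TMM totals, and RPKM uses exon lengths of GENCODE M21, which matched Cyp2c44 by its newer symbol Cyp2c23. Each p-value tests the difference between the genotypes against the spread between mice of the same genotype. On simulated data, edgeR recovered 91 of 104 genes changed 4-fold and 35 of 96 changed 2-fold, with 7 false calls over 18936 genes. Only 200 genes were changed there, while 47.4% of genes were called in these data. The simulated rates therefore do not carry over to these data.

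The members and lists were chosen with earlier results of these data known. Every tested member is named; counts in each lung are given for called members with an absolute log2 fold change of at least 1 or a mean of at least 1000 normalized counts, and for some others (among them Cyp2e1, Cyp4f39, Cyp4a12a, Cyp51, Cyp26b1 and Cyp11a1) chosen after their values were seen. From the other lists the genes with the largest and smallest change and those closest to a P450 enzyme are named, except for single values that are not reported here. Alternatives were DESeq2 1.42.0, limma-voom (limma 3.58.1), other scalings, filters and dispersions, a replicate block, a fold limit and each lung left out.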

Additional observations from a re-analysis of the deposited data

How the results depend on the processing

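No called P450 gene changed direction under any alternative. Beside 24 calls in the test reported, DESeq2 gave 22 (without Cyp2b9 and Cyp2b19), limma-voom 25, no filter on low counts 23, and at least 10 counts in every lung 20 (Cyp1a1, Cyp2b9, Cyp2b19 and Cyp2c44 were then not tested). A minimum absolute log2 fold change of 1 left 14 P450 genes and 4320 of all genes. Leaving out each lung gave 17 to 22 P450 genes (8 to 9 higher, 8 to 13 lower) and 7347 to 9164 of all genes. Leaving out both first replicates, an alternative chosen after seeing the data because those 2 libraries stood apart, gave 18 (7 higher and 11 lower). Cyp2ab1, Cyp2b9, Cyp2b13, Cyp2b19, Cyp3a13, Cyp26b1 and Cyp39a1 lost their calls there and Cyp4a12a gained one.

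The median log2 fold change of the tested P450 genes moved with the tool as well as with the genes that entered. It was -0.40 with limma-voom, -0.64 with no filter, where 87 genes were fitted, and 0.10, the opposite sign, with at least 10 counts in every lung, where 31 genes remained tested. It ranged from -0.49 to -0.11 when each lung was left out.

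Called genes numbered 3 to 4 among the redox partners, 2 to 5 in the aryl hydrocarbon receptor axis, 6 to 9 in retinoid handling and 3 to 6 in cholesterol synthesis when each lung was left out. Without both first replicates, 3 redox partners, 6 retinoid genes and 3 cholesterol genes were called, with total counts only 3 cholesterol genes, and with at least 10 counts in every lung 3 nuclear receptors. Signs changed only in genes that were not called: left out in turn, single lungs gave -0.49 to 0.18 for Cyp2d26 (highest without TNF+ replicate 3), -0.22 to 0.030 for Cyp2j9 (without TNF+ replicate 1), -0.44 to 0.27 for Cyp46a1 (without TNF- replicate 3, and 0.0096 without TNF+ replicate 1) and -1.56 to 0.21 for Cyp11a1 (without TNF+ replicate 2, and 0.13 without TNF+ replicate 1). Without both first replicates Cyp11a1 was at 0.26. Except where fewer genes or lungs entered, the cause was not tested.

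Whether the replicate numbers pair the mice was not given in the sources used here. Same-numbered lungs had correlations of -0.24 to -0.0043 in their deviations from the group means, and other pairs -0.06 to 0.21. These deviations cancel out within each group, so the correlations cannot decide whether the mice were paired. With the replicate block 24 P450 genes were called (Cyp2b19 lost, Cyp4a12a gained), with a median of -0.33, and 3 redox partners. The filter on low counts removed 62 members.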
